A study of Homo sapiens with 6 samples.

Results

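The cytosolic ribosomal protein genes encode the protein subunits of the ribosomes that translate nuclear-encoded mRNA. Members were taken by platform symbol: RPL or RPS followed by a digit, RPLP0 to RPLP2, RPSA or FAU, without RPS6 kinase genes, RPS4Y genes and pseudogenes. The rule found 78 genes on 128 of the 47321 probes, out of 20045 named genes on the array. Of these, 26 belong to the small subunit, 43 to the large subunit and 8 are paralogs, meaning related genes with an L after the number, such as RPL22L1. RPS19BP1 matches the rule by its symbol, but it encodes a protein that binds RPS19 and is no subunit, so it was kept apart. RNA levels came from 6 Illumina HumanHT-12 V4.0 expression arrays, 1 a sample. The samples were labelled HCC1954, a line from a HER2-positive breast carcinoma. They had been given TBK1 inhibitor II (n = 3), a compound named for the kinase TBK1, or vehicle (n = 3) over 3 days. The labels used here give no dose, and both groups carry the same label for line and subtype. Nothing in them says whether replicates were separate cultures, so p-values measure the spread between these samples only, which may be technical. In such bulk RNA, fewer cells of a type and less RNA per cell cannot be told apart.

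A ribosome has a small subunit, which reads the mRNA, and a large subunit, which joins the amino acids. Each holds 1 copy of most of its proteins, and growing cells make them from some of the most abundant mRNAs. These mRNAs typically begin with a C followed by a run of pyrimidines, the 5′ terminal oligopyrimidine (TOP) tract, through which the kinase mTOR and the RNA-binding protein LARP1 control their translation. That control of translation is not measured by an mRNA level.

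The array medians of signal intensity were 110.7 to 130.7 for inhibitor and 98.5 to 138.1 for vehicle, and 11582 genes were measured, meaning that their probe was detected on at least 3 of the 6 arrays. Of 15 markers of a HER2-amplified breast epithelial line that have a probe, 8 were detected in every sample. Their median signal intensities ran from 164.15 (MIEN1) to 405.3 (ERBB2). GRB7, KRT5, KRT7, KRT14, KRT19 and CLDN3 were detected in none. Those absences go against the label, so each difference below is one between samples labelled HCC1954. Of 12 markers of other cell types, 5 were detected in every sample: VIM, NEFM and CDH2, with median signal intensities of 5667, 2003 and 1407, and the dimmer NEFL and COL1A1. DCN and CD14 were detected on 5 of 6 arrays, and PTPRC, CD3E, PECAM1, VWF and COL1A2 on none. Among the 7 measured markers of other cell types, 2 were called higher, DCN and CD14 (28.6%, against 3.59% of all genes). Their log2 fold changes (inhibitor over vehicle) were 1.29 and 1.06, on dim probes with median signal intensities of 170.4 and 163.3. Of those not called, COL1A1 (0.35) and CDH2 (0.31) were positive, and VIM (-0.46), NEFL (-0.29) and NEFM (-0.18) were negative. The summed signal intensity of the 7 was 8541.6 to 11250.8 on inhibitor arrays and 8016.5 to 14763.5 on vehicle arrays. The part of these markers in the results was not tested.

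The annotated starts of the genes carried the TOP tract for most subunit genes and for 1 paralog. RefSeq start windows (GRCh38.p14) were found for 65 of the 78 members. A window was counted when its first transcribed base was C and at least the next 4 bases were C or T, read on the transcribed strand only. This held for 17 of 23 small subunit genes (73.9%), 27 of 36 large subunit genes (75%) and 1 of 6 paralogs. The share was 5.14% of all 27305 genes of the table, 7.54% of the 9355 measured genes with a start window and 8.82% of 68 mitochondrial ribosomal protein genes. Counted by start, 45 of 77 member starts (58.4%) held it, against 4.07% of all starts. The windows below run from 20 bases before the start to the tenth transcribed base, with the tract in capitals. They show the members on which the results turn, and 2 pairs of subunit gene and paralog.
RPL36A, chrX:101390991-101391020, plus strand: ttccgtttgcctcgcggtttCTTTCTTTCC
RPL29, chr3:51995886-51995915, minus strand: tgctgcaccgcagcccctttCTCTTCCggt
RPS21, chr20:62387083-62387112, plus strand: tgccgggtgactagctgcttCCTTTCTCTC
RPS6, chr9:19380227-19380256, minus strand: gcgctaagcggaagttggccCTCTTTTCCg
RPS7, chr2:3575240-3575269, plus strand: ttccggtttccgccctcctcctcgcgctgt
RPL22, chr1:6199586-6199615, minus strand: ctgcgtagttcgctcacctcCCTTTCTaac
RPL22L1, chr3:170870186-170870215, minus strand: gaccgcgcggccgtagcttcCTCTCTgctc
RPS27, chr1:153990742-153990771, plus strand: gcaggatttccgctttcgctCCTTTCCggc
RPS27L, chr15:63157468-63157497, minus strand: cccggaagttgatgccgagcgcagatcgct
The RPS7 window begins with a short pyrimidine run that a G interrupts, and RPS27L begins with G. RPL22 and its paralog RPL22L1 both carry the tract, whereas of RPS27 and RPS27L only RPS27 does. A match describes the annotated start alone.

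After 3 days with the inhibitor, 1 of 76 measured members passed the test and was lower, 75 did not pass and none was higher. The share called lower among members, 1.32%, was near the 1.86% of all 11582 genes, and the share called higher was 0 of 76, against 3.59% of all genes. Calls are adjusted p-values under 0.05 from limma with Benjamini-Hochberg adjustment over all genes, where 5.45% were called in either direction. At an unadjusted p under 0.05 there were 6 members (7.89%), against 24.4% of all genes. These 6 were RPL22L1, RPL36A, RPL29, RPS27L, RPS21 and RPS7, all with negative log2 fold changes. The median log2 fold change (inhibitor over vehicle) was -0.04 over the members and 0.03 over all genes, and 49 members (64.5%) lay below 0, against 46.3% of all genes. The 3 inhibitor values lay below all 3 vehicle values for 13 members (17.1%), against 13% of all genes, and above them for 3 members (3.95%), against 18.5%. These counts describe the list. Members are not replicates, and no test was made over them.

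**Figure D1:**
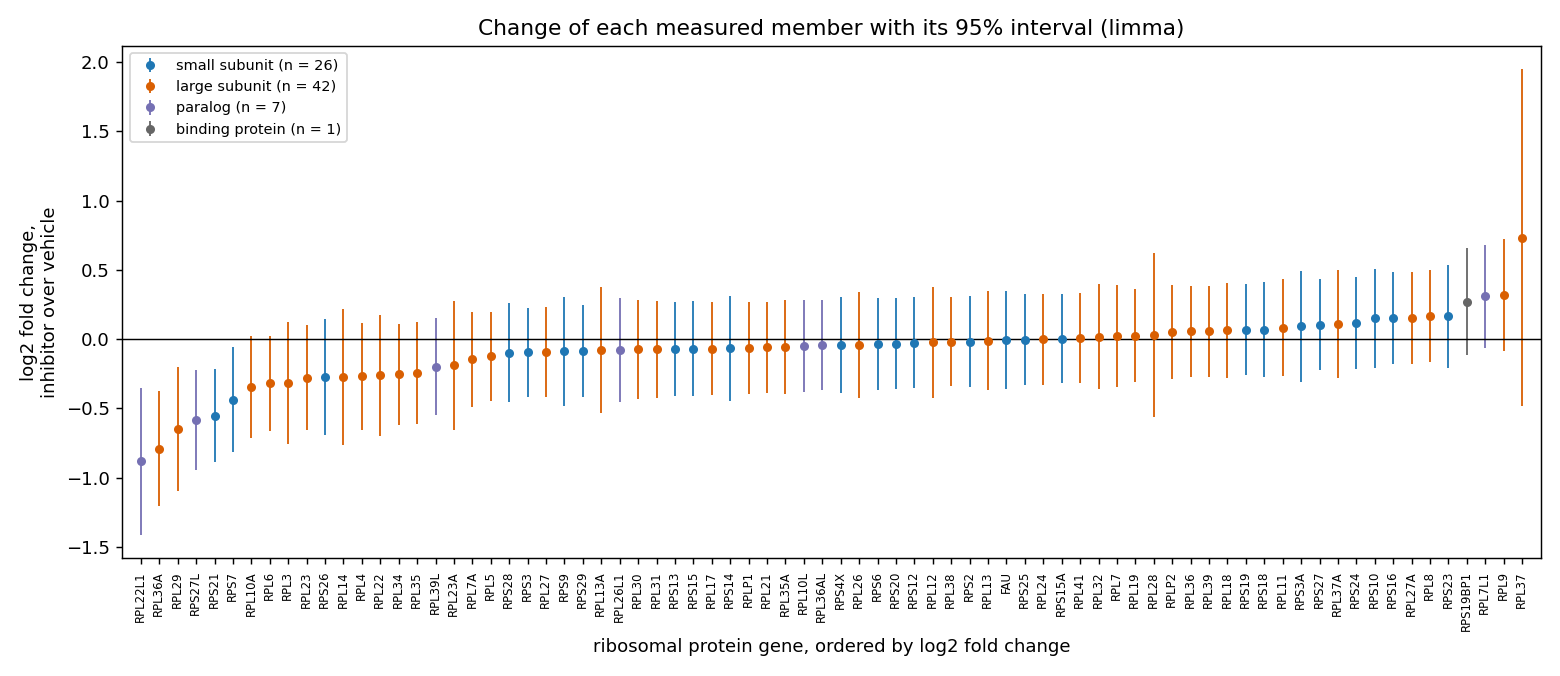
Log2 fold change (inhibitor over vehicle, y axis) of each of the 76 measured members, ordered by size along the x axis, with limma's 95% interval and n = 3 per group. The 6 intervals that lie wholly below 0 belong to RPL22L1, RPL36A, RPL29, RPS27L, RPS21 and RPS7, and RPL37 has the widest interval.

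On the quantile-normalized values, the intervals give the size of change left possible by the spread between these samples. They leave out the scaling of the arrays. The members' median log2 fold change was -0.04 here, 0.21 with median centring and 0.28 with no normalization between arrays. For 54 of 76 members the 95% interval lay within a 1.5-fold change in either direction, and for 72 within a 2-fold change, against 3996 and 9679 of all 11582 genes. The median within-group SD was 0.12 for members and 0.21 for all genes on the log2 scale. An interval that holds 0 does not show an equal level for any member.

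RPL36A, a large subunit protein near the site where spent tRNA leaves, was the only member called. Its normalized log2 levels were 10.23, 9.73 and 9.71 in inhibitor samples 1, 2 and 3, against 10.74, 10.56 and 10.74 in vehicle samples 1, 2 and 3. All 3 inhibitor values lay below the vehicle values, with inhibitor sample 1 nearest to them. It fell by 0.79 on the log2 scale, with an SE of 0.18 and a 95% interval from -1.21 to -0.37 (limma adjusted p = 0.0435). Before normalization its signal intensities were 1115.9, 1061 and 1161.3 with inhibitor and 1285.9, 1237.1 and 2385 with vehicle. The call was lost when any 1 of the 6 samples was left out (log2 fold change -0.96 to -0.70) and with median centring of the arrays (-0.60, adjusted p = 0.237). It was also lost with no normalization between arrays (-0.53, adjusted p = 0.508) and with the mean of the RPL36A probes (-0.56, adjusted p = 0.0970). The median over all genes was itself 0.24 with median centring and 0.31 with no normalization, against 0.03 with quantile normalization. RPL36A's other kept probe, detected on 1 of 3 inhibitor arrays and on all 3 vehicle arrays, had -0.32 ± 0.26 (SE).

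RPL29, a heparin-binding large subunit protein, had levels of 10.86, 10.41 and 10.61 with inhibitor and 11.61, 11.06 and 11.15 with vehicle. The groups did not overlap, and the log2 fold change was -0.65 ± 0.20 (SE, limma adjusted p = 0.0897). RPL29's other probe gave -0.63 ± 0.15 and also separated the groups. RPS21, a small subunit protein, had 11.56, 11.38 and 11.43 with inhibitor and 12.05, 11.93 and 12.04 with vehicle, again without overlap and with narrow spread in both groups. Its difference was -0.55 ± 0.15 (adjusted p = 0.0622), and it was called in 6 of 16 alternative settings, as RPL36A was. RPS7, a small subunit protein known to bind the p53 regulator MDM2, had 11.37, 11.32 and 11.53 with inhibitor and 12.05, 11.63 and 11.85 with vehicle. The groups stood apart by a small margin, with -0.44 ± 0.17 (adjusted p = 0.154) and -0.65 ± 0.17 for its other probe. RPL29 and RPS7 were called in 3 and 2 of 16 alternative settings.

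**Figure D2:**
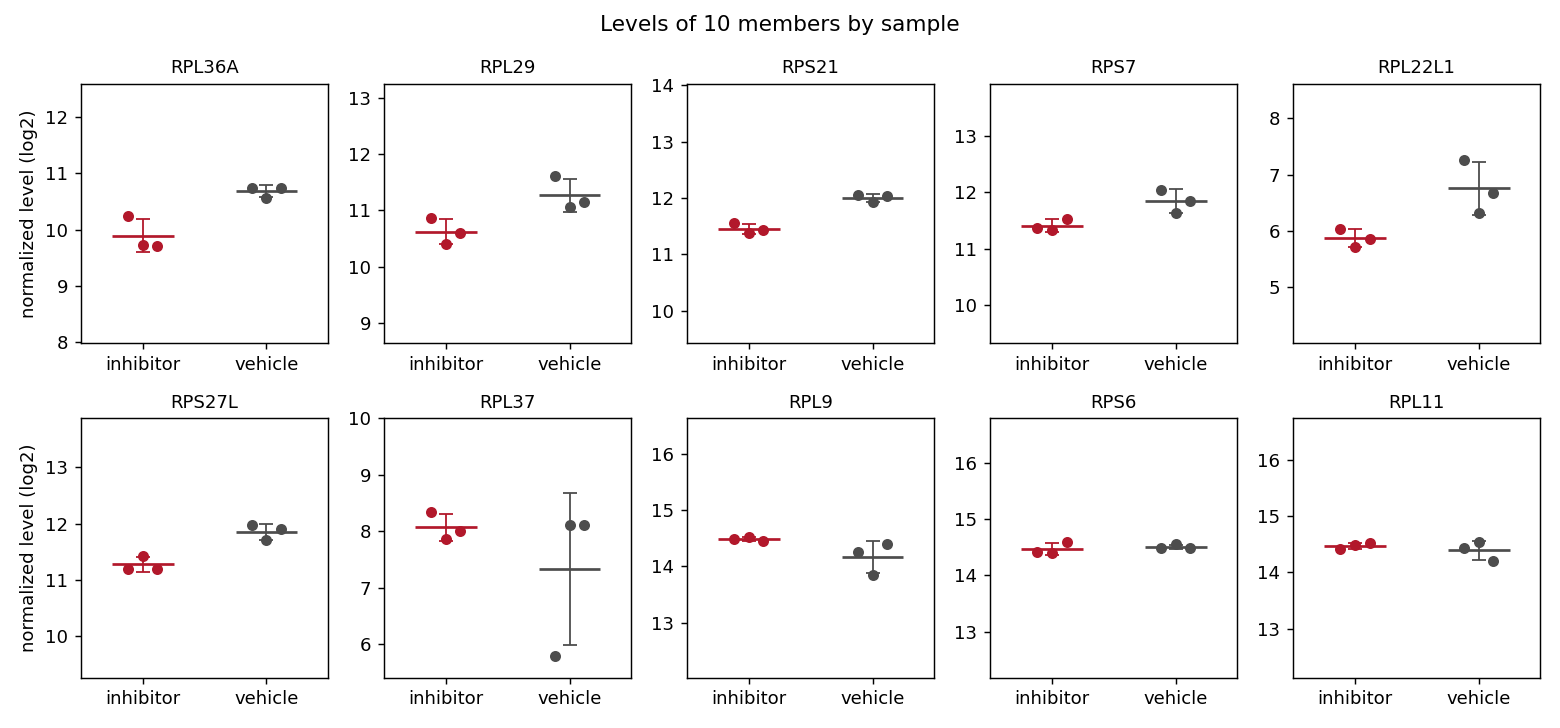
Normalized log2 levels of 10 members in each sample (points), with the group mean (line) and SD (bar, n = 3), inhibitor left and vehicle right. Each panel spans the same log2 range, and the groups stand apart for RPL36A, RPL29, RPS21, RPS7, RPL22L1, RPS27L and RPL9 and overlap for RPL37, where vehicle sample 1 lies far below the others, RPS6 and RPL11.

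Of the 26 small subunit genes, none was called by limma, and 2 (7.69%, against 24.4% of all genes) had an unadjusted p under 0.05, RPS21 and RPS7. The log2 fold changes ran from -0.55 to 0.17 with a median of -0.03, and 17 lay below 0. RPS6, the substrate of the S6 kinases downstream of mTOR, had levels of 14.41, 14.40 and 14.59 with inhibitor and 14.48, 14.55 and 14.48 with vehicle. The ranges overlapped, and the difference was -0.04 with a 95% interval from -0.37 to 0.30. RPS14, a gene of the 5q- syndrome, had -0.06 (interval -0.44 to 0.31), RPS18 had 0.07 (-0.28 to 0.41), and RPS3, which lines the mRNA entry channel, had -0.10 (-0.42 to 0.23). RPS26, which lies at the mRNA exit channel, had -0.27 ± 0.19, and FAU, which encodes a ubiquitin-like protein fused to a small subunit protein, had -0.0046 ± 0.16. At the upper end stood RPS23, a protein of the decoding centre (0.17 ± 0.16), RPS16 (0.15 ± 0.15) and RPS10 (0.15 ± 0.16), with limma adjusted p-values of 0.581, 0.568 and 0.607. RPS16 was the only small subunit gene with all inhibitor values above the vehicle values, at 14.12, 14.11 and 14.16 with inhibitor against 14.09, 13.96 and 13.88 with vehicle. Vehicle sample 1 lay close to the inhibitor samples.

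Of 43 large subunit genes 42 were measured, 1 was lower (RPL36A), none was higher and 41 did not pass. RPL10, which joins late in assembly and is needed for subunit joining, was not detected on any array by either of its probes. The 42 log2 fold changes had a median of -0.06 and ran from -0.79 to 0.73, and 26 lay below 0. After RPL36A and RPL29 the lowest were RPL10A, which forms the mobile L1 stalk (-0.35 ± 0.16, limma adjusted p = 0.228), and RPL6 (-0.32 ± 0.15, adjusted p = 0.237). RPL10A had 14.04, 14.25 and 13.84 with inhibitor and 14.39, 14.45 and 14.33 with vehicle, a narrow separation. RPL10A's other probe gave -0.20 ± 0.18, with overlapping groups. RPL6 had 14.24, 14.07 and 14.16 with inhibitor and 14.61, 14.35 and 14.46 with vehicle. It was also separated on this probe, while another RPL6 probe of similar brightness gave 0.01 ± 0.15. RPL3, near the catalytic centre, and RPL4, which lines the exit tunnel, had -0.32 ± 0.19 and -0.27 ± 0.17, with intervals that include 0. Another RPL3 probe of similar brightness gave -0.08 ± 0.19.

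Several large subunit proteins have roles beyond the ribosome or a special place in it. RPL5 and RPL11, which with 5S rRNA can bind MDM2, had -0.12 ± 0.14 and 0.08 ± 0.16. RPL5 had 13.95, 14.00 and 13.99 with inhibitor and 14.11, 14.12 and 14.08 with vehicle, a small gap between tight groups. RPL11 had 14.42, 14.49 and 14.52 with inhibitor and 14.43, 14.53 and 14.21 with vehicle, with overlapping ranges. RPL13A, part of an interferon-responsive complex that silences mRNAs, had -0.08 ± 0.20. The stalk proteins RPLP1 and RPLP2, which recruit translation factors, had -0.06 ± 0.15 and 0.05 ± 0.15. RPL41, one of the shortest human proteins, had 0.01 ± 0.14 on its bright probe and -0.39 ± 0.20 on a dim one.

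The highest fitted values in the large subunit were those of RPL37 and RPL9, neither of them called. RPL37, near the exit tunnel, was measured by a dim probe with levels of 8.33, 7.87 and 8.0 with inhibitor and 5.78, 8.12 and 8.11 with vehicle. Vehicle sample 1 alone was low. The log2 fold change was 0.73 ± 0.54 (limma adjusted p = 0.446) and was -0.05 without that sample. RPL37 was past the threshold only with median centring (0.96, adjusted p = 0.0292). RPL9 had 14.49, 14.52 and 14.45 with inhibitor and 14.25, 13.85 and 14.40 with vehicle. The inhibitor values lay just above the highest vehicle value, with 0.32 ± 0.18 (adjusted p = 0.306) and 0.18 and 0.03 for RPL9's other probes. RPL8, a core protein of the catalytic centre, had 0.17 ± 0.15, and RPL27A had 0.15 ± 0.15.

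Of the 8 paralogs, 7 were measured and 0 were called by limma. An unadjusted p under 0.05 was found for 2 (28.6%, against 24.4% of all genes), and the median log2 fold change was -0.08. RPL3L, a form known from heart and skeletal muscle, was not measured. RPL22L1, a relative of RPL22, had 6.03, 5.72 and 5.86 with inhibitor and 7.26, 6.33 and 6.68 with vehicle. The groups did not overlap, and vehicle sample 1 was the highest. The fitted difference was the lowest among the 76 members, -0.88 ± 0.24 (limma adjusted p = 0.0617), on a dim probe whose signal intensity was 146.6 to 176 with inhibitor and 140.1 to 236.1 with vehicle. With the deposited processed values the RPL22L1 difference was -0.35, and it was called in 4 of 16 alternative settings. RPL22 itself had -0.26 ± 0.19 (adjusted p = 0.451).

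RPS27L, a p53-inducible relative of RPS27, had 11.20, 11.43 and 11.20 with inhibitor and 11.97, 11.70 and 11.90 with vehicle. The groups stood apart, with -0.58 ± 0.16 (limma adjusted p = 0.0659), and 5 of 16 alternative settings called it. RPS27 had 0.11 ± 0.15 on its brightest probe, and the difference between the responses of the pair was not tested. RPL7L1, a relative of RPL7, had 12.56, 12.63 and 12.39 with inhibitor and 12.13, 12.43 and 12.09 with vehicle, which overlapped by a small margin, and 0.31 ± 0.17 (adjusted p = 0.283). Its other probe had -0.15. RPL39L, known from male germ cells, had -0.20 ± 0.16, RPL26L1 -0.08 ± 0.17, RPL36AL -0.04 ± 0.14 and the dim RPL10L -0.05 ± 0.15. RPL36AL, whose protein is nearly identical to that of RPL36A, thus had an interval from -0.37 to 0.28. RPS19BP1 had 0.27 ± 0.17 (adjusted p = 0.366).

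Probes of the same gene often differed. Of 35 members with more than 1 kept probe, 16 had all probes on the same side of 0 and 19 did not. For RPL34 the brighter probe had -0.25 ± 0.16 and the dimmer 0.80 ± 0.16, and each separated the groups in its own direction. The signal intensities of the dimmer RPL34 probe were 788.9, 853.9 and 935.7 with inhibitor and 374.5, 376.4 and 614.4 with vehicle. RPS29 had 3 bright probes between -0.09 and 0.10 and a dim probe at 0.85 ± 0.34. RPL17 (-0.07, -0.11 and 0.40), RPS24 (0.12 and -0.35), RPLP1 (-0.06, 0.09 and 0.35) and RPL32 (0.02 for the bright probe, -0.52 to 0.01 for dim ones) were split as well. Probe sequences were not used here, so it was not tested which transcripts or processed pseudogenes each probe detects.

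**Figure D3:**
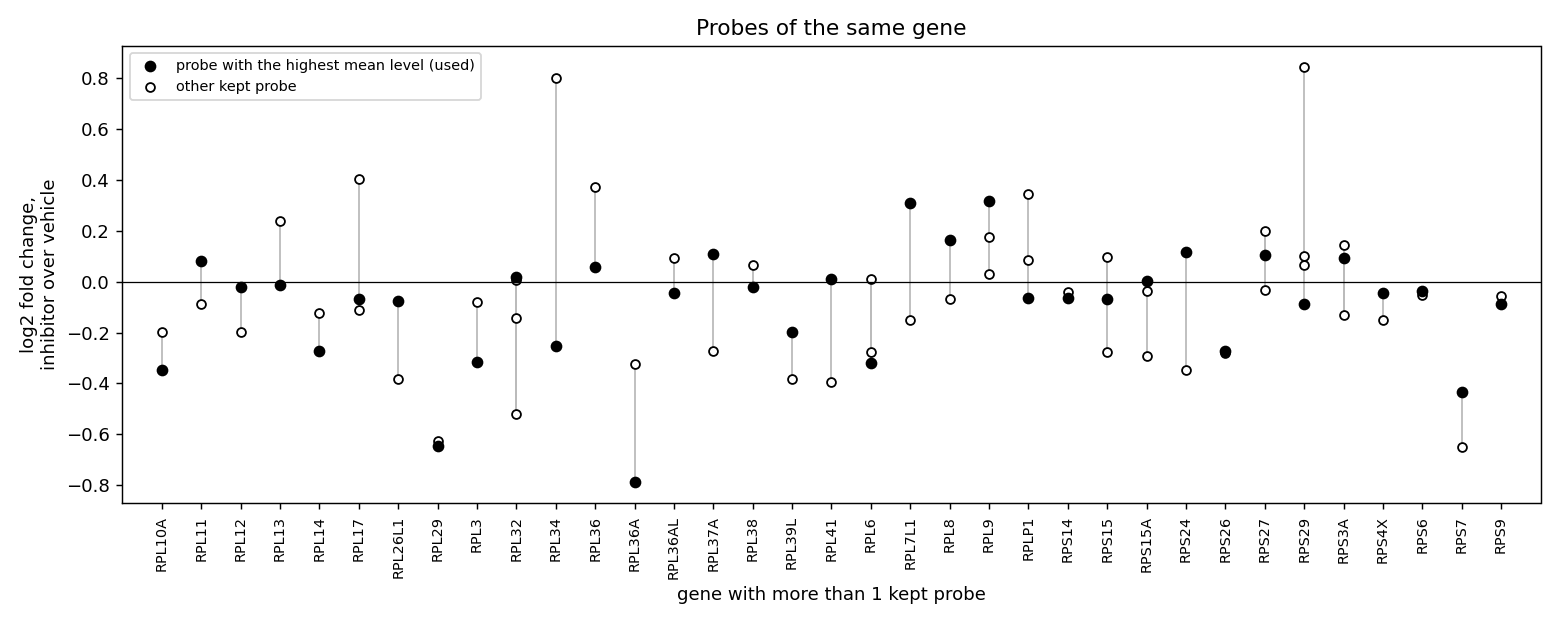
Log2 fold change (y axis) of every kept probe of the 35 members with more than 1 kept probe (x axis). Filled points are the probes used, those with the highest mean level, and the RPL29 and RPS7 probes all lie below 0, while the probes of RPL34 and RPS29 lie on both sides of it.

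Most members lay at the top of the signal range. They made up 26 of the 50 and 45 of the 100 brightest genes, and their median probe stood at the 99.3rd percentile. Probe brightness also depends on the probe, so it does not rank the transcripts. The median signal of the members was 17015.2, 19048.8 and 19320.3 with inhibitor and 12298.8, 12883.9 and 21654.5 with vehicle, while the brightest probe of each array reached 26691.6, 27072.3 and 29390.1 with inhibitor and 19741.4, 20082 and 34446.8 with vehicle. Their share of all signal was 4.49% ± 0.26 with inhibitor and 4.32% ± 0.12 with vehicle (SD, n = 3), with overlapping ranges. The 54 members with a mean log2 level of 13 or more, a limit chosen after the values were seen, had a median of -0.03, none called and none at an unadjusted p under 0.05. The 22 below it had a median of -0.19, with 1 call and 6 (27.3%) at an unadjusted p under 0.05. Among all genes the shares at an unadjusted p under 0.05 were 7.62% at 13 or more and 24.7% below it, so that of the dimmer members was near that of all dimmer genes. Over all genes the medians were -0.01 (210 genes at 13 or more) and 0.03 (11372 genes below it).

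**Figure D4:**
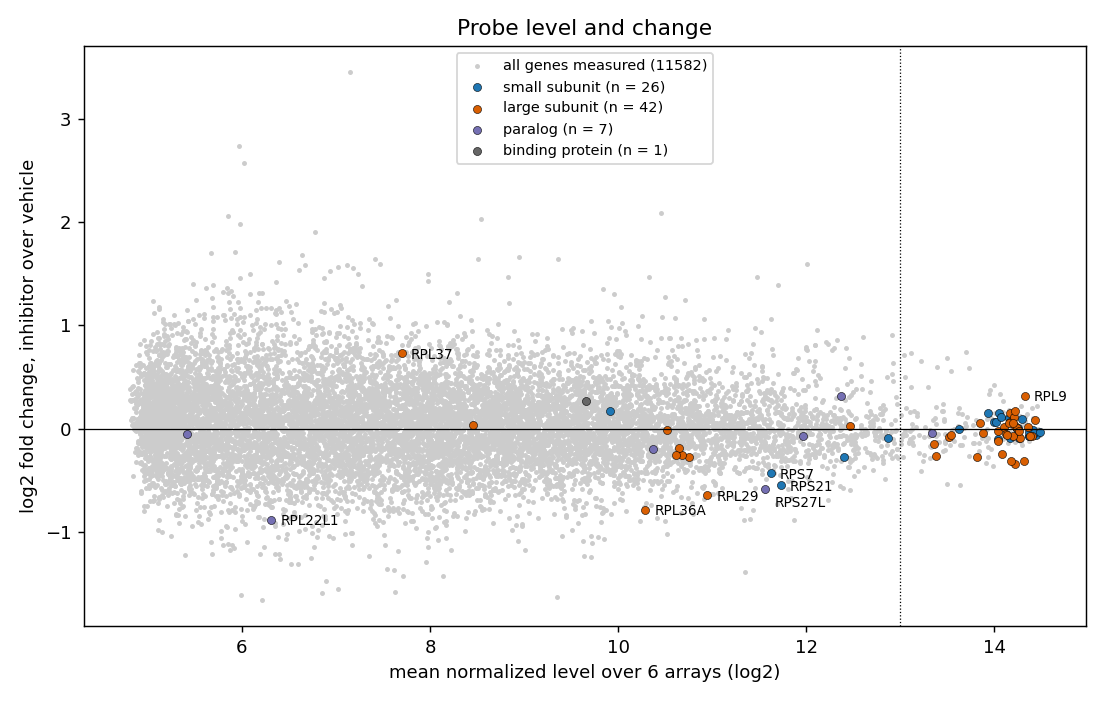
Mean normalized level over the 6 arrays (x axis, log2) against log2 fold change (y axis, inhibitor over vehicle) for 11582 measured genes (grey) and the members (colours). The dotted line marks a level of 13, and most members crowd at the bright end within about 0.35 of 0, and RPL36A, RPL29, RPS7, RPS21, RPS27L and RPL22L1 lie lower, at lower levels.

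The subunits were compared through each gene's own level, since levels of different probes cannot be set against each other. For each gene its deviation from its own mean over the 6 arrays was taken. The small subunit median of these deviations was -0.03, -0.03 and -0.0021 in inhibitor samples 1, 2 and 3, against 0.04, 0.01 and -0.01 in vehicle samples 1, 2 and 3. The large subunit median was -0.01, -0.01 and -0.07 with inhibitor and 0.02, 0.04 and 0.04 with vehicle. The groups thus overlapped for the small subunit and did not for the large. The median over all genes also separated the groups, in the other direction. It was 0.023, 0.014 and 0.027 with inhibitor and -0.042, -0.019 and 0.0071 with vehicle. The small minus large value averaged 0.01 ± 0.05 with inhibitor and -0.02 ± 0.03 with vehicle (SD, n = 3), and the groups overlapped. On no array did the subunits' median deviations differ by more than 0.07. The medians of the gene-wise log2 fold changes, -0.03 and -0.06, likewise differed by 0.03. The large subunit held 12 of 42 genes past 0.25 in size and the small subunit 3 of 26, against 48% of all genes. At a level of 13 or more these counts were 6 of 32 for the large and 0 of 21 for the small subunit, against 15.7% of all genes at that level.

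**Figure D5:**
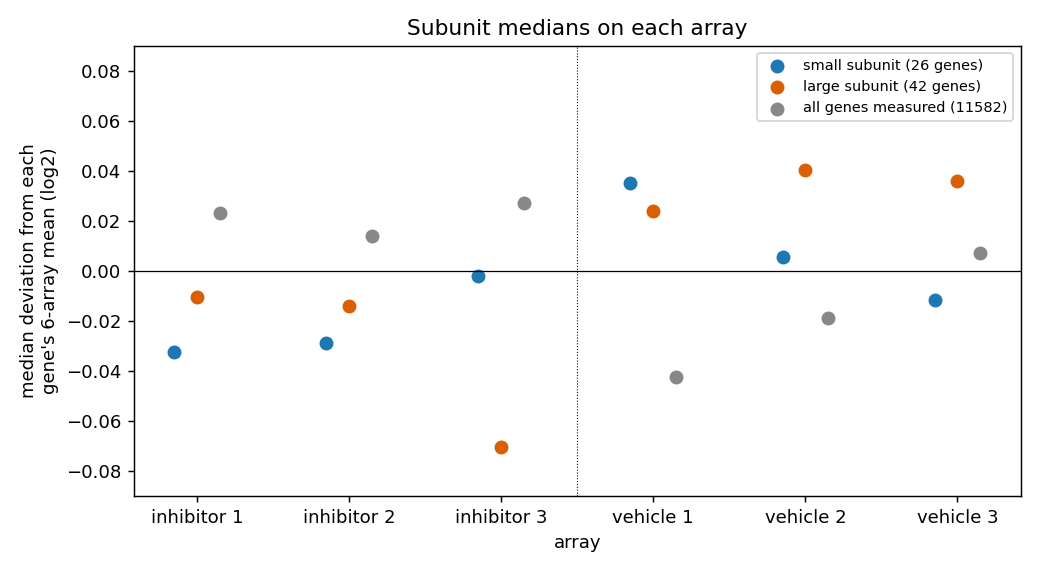
Median over genes of the deviation from each gene's mean over 6 arrays (y axis, log2) for the small subunit, the large subunit and all measured genes, by array (x axis, inhibitor left of the dotted line, vehicle right of it). All medians lie at most 0.07 from 0, and the large subunit's lie below 0 on the inhibitor arrays and above 0 on the vehicle arrays. The medians of all measured genes also separate the groups, in the other direction.

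The side of 0 on which the members lay depended on the scaling of the arrays. With each array centred on its median, the median log2 fold change was 0.21 for the members, 0.25 for the small and 0.21 for the large subunit, and the median of all genes moved to 0.24. Relative to all genes, the small subunit then stood at 0.01 and the large subunit at -0.04, against -0.06 and -0.09 with quantile normalization. The split of all called genes moved too, with 675 higher and 36 lower under median centring against 416 higher and 215 lower. Quantile normalization gives every array the same set of values, so a shift shared by the brightest probes is not visible in it.

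Lists of genes that make or regulate ribosomes are set here beside all genes, of which 24.4% had an unadjusted p under 0.05. Of 55 measured genes of rRNA processing and ribosome assembly, 1 was lower (1.82%, against 1.86% of all genes), 54 did not pass and none was higher, with 9 (16.4%) at an unadjusted p under 0.05 and a median log2 fold change of -0.14. The called gene was NLE1, an assembly factor of the large subunit, with 6.38, 6.63 and 6.33 with inhibitor against 7.57, 7.10 and 7.29 with vehicle. The groups stood well apart, at -0.87 ± 0.18 (limma adjusted p = 0.0316), and NLE1 was called in 8 of 16 alternative settings. Of 20 measured genes of mTOR and the regulators of TOP mRNAs, 1 was higher (5%, against 3.59% of all genes) and 19 did not pass (median 0.05, 5 at an unadjusted p under 0.05). TSC1, which with TSC2 restrains mTOR complex 1, had 8.46, 8.87 and 8.89 with inhibitor and 7.70, 7.95 and 7.87 with vehicle. The groups did not overlap, and the log2 fold change of TSC1 was 0.90 ± 0.18 (higher, adjusted p = 0.0298). It was called in 9 of 16 alternative settings. LARP1 was not measured.

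None of 15 RNA polymerase I genes passed by limma, with 3 at an unadjusted p under 0.05 and a median of -0.24. TTF1, which ends rRNA transcription, had -0.58 ± 0.19 (adjusted p = 0.0999), and the rDNA activator UBTF had -0.80 ± 0.30 (adjusted p = 0.149). Among 20 elongation factors and other genes of TOP mRNAs none passed (median -0.03, 2 at an unadjusted p under 0.05). The smallest p-values were those of the RNA-binding HNRNPA1 (-0.55 ± 0.23, adjusted p = 0.178) and the helicase EIF4A2 (0.63 ± 0.27, adjusted p = 0.191). Among 28 initiation factors none passed (median -0.06, 3 at an unadjusted p under 0.05), with EIF2S2, a subunit of the factor that brings the initiator tRNA, at -0.78 ± 0.21 (adjusted p = 0.0623) and EIF2B4, of its exchange factor, at 0.43 ± 0.15 (adjusted p = 0.117). None of 15 genes of the p53 pathway passed (median 0.09, 2 at an unadjusted p under 0.05), with GADD45A at 0.68 ± 0.24 (adjusted p = 0.128) and SESN2 at 0.50 ± 0.22 (adjusted p = 0.198).

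The mitochondrial ribosomal protein genes serve the separate ribosomes of mitochondria. None of 76 passed by limma, with 13 (17.1%, against 24.4% of all genes) at an unadjusted p under 0.05, 56 below 0 and a median of -0.14. The median level stood at the 99.3rd percentile for the cytosolic members and at the 87.6th for the mitochondrial genes. MRPL17 (-0.52 ± 0.15, adjusted p = 0.0797) and MRPL30 (-0.51 ± 0.16, adjusted p = 0.0900) had the smallest p-values. Of the cytosolic subunit genes with a start window, the 43 measured with the TOP tract had a median log2 fold change of -0.02 with 1 called lower. The 15 without it had -0.09 with 0 called. The 661 other measured genes with the tract had 0.01, with 13 called lower and 21 higher. Over all genes 1.86% were called lower and 3.59% higher.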

How the data were processed

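Per the file headers, the deposited non-normalized table pairs each array's linear signal intensity with the p-value of detection, probe by probe. The authors' deposited processed values were read as log2 values from their range, with column medians of 7.16. Their transformation is not stated in the sources used here, and lumi is named without a version per the submitters' processing notes. The analysis used neqc of limma 3.58.1 (R 4.3.3; normexp with negative controls inferred from detection, offset 16, quantile normalization, log2). A probe was kept where 3 or more of the 6 arrays had detection below 0.05 (19958 probes), so a probe high in 1 group only could enter. The kept probe with the highest mean level stood for a gene. Probes with several symbols (8) or none (17201) were left unnamed, and symbols were updated by gene ID (30073 probes matched, RefSeq, GRCh38.p14). Inhibitor and vehicle were compared with lmFit and eBayes on all kept probes without a covariate, with Benjamini-Hochberg adjustment over 11582 genes.

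The members and gene lists were chosen with earlier results of these data known. Named members were those called, the 8 highest and 8 lowest fold changes, the 3 brightest and dimmest, paralogs, members whose probes disagreed and 10 fixed genes, of which RPLP0, RPS27A and RPSA were not analysed here. Other members were named for their role after their values were seen, and each further list gave up to 4 called genes or the 2 with the smallest p. The procedure was run on simulated data with independent noise for each probe. That simulation held no differences in scaling between arrays, so it does not bear on them. Array correlations over kept probes were 0.988 to 0.991 within the inhibitor group and 0.975 to 0.985 within the vehicle group. The number of arrays limits the precision. Alternatives changed the background correction, offset, normalization, probe filter, probe choice, array weights and replicate block, left out each sample or took the deposited processed values.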

Additional observations from a re-analysis of the deposited data

How the results depend on the processing

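Of 16 alternatives, most moved the number of calls more than the fold changes. In the main fit 631 genes were called in either direction, 215 of them lower, and 1 member was called lower. Without background correction these numbers were 1367, 544 and 5, and with an offset of 50 they were 1176, 451 and 5. With the deposited processed values they were 1355, 539 and 6, and with array weights 970, 357 and 3. No normalization between arrays gave 221, 6 and 0. Each of these fits tested 11582 genes, 76 of them members. With a detection p under 0.01 on all 6 arrays, 4 of 75 members were called lower, against 388 of 8696 genes. Without a filter on dim probes 3 of 78 members were, against 244 of 20045 genes. Members called lower numbered 0 with the mean of a gene's probes (230 genes lower) and 0 with median centring (36 genes lower). With median centring 1 member (RPL37) and 675 genes were called higher. Leaving out 1 sample gave 4 to 437 genes called in either direction. There were 4 without inhibitor sample 2, 4 without inhibitor sample 3 and 37 without inhibitor sample 1. There were 346 without vehicle sample 1 and 218 without vehicle sample 3. Leaving out 1 sample gave 0 to 1 members called, RPL22L1 without vehicle sample 2, where 125 genes were called lower. Over these fits the median log2 fold change lay between -0.051 and -0.027 for members, -0.027 and -0.0070 for the small and -0.079 and -0.014 for the large subunit, and small minus large between -0.013 and 0.068. That difference changed sign only without inhibitor sample 3. With no normalization the 3 medians were 0.28, 0.31 and 0.27, with median centring 0.21, 0.25 and 0.21, and array weights gave -0.0060 for the small subunit. With paralogs counted in their subunit, chosen after seeing the data, no median moved past the spread between replicates. Of 543 values of 34 named members, 22 passed the threshold anew, 10 (all RPL36A) no longer passed and none passed in the opposite direction, while 51 changed sign without a call. The replicate block gave 40 genes and 0 members (RPL36A, limma adjusted p = 0.0745). Whether samples with the same number belong together cannot be decided from these values. Correlations of same-numbered deviations were -0.14, 0.02 and 0.12, and 2 of 6 samples matched best with their own number. Before normalization the array median signal rose with the number in both groups, at 110.7, 117.3 and 130.7 with inhibitor and 98.5, 101.7 and 138.1 with vehicle. Slide as a block was not run, since no slides are given. The causes were not tested.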
